A study of Mus musculus with 9 samples.

Results

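Adh1, Aldh1a1, Aldh1a2, Aldh1a3, Rara, Rarg, Rxra, Stra6, Crabp2 and Cyp26b1 are genes of vitamin A (retinoid) metabolism and signalling, and their transcripts were compared between innate lymphocytes of the mouse small intestine. The 10 genes were taken by their symbol in the platform annotation, and all 10 were found among the 19938 genes measured. Where a gene had more than 1 row of the table, the row of highest mean was to be used, but each of the 10 had exactly 1 row, so that measured values chose no row. Adh1 heads the set because its differences between the populations were already known from these arrays. Its levels and differences are therefore given as a description with no test. The other genes of the set and the lists used below were also chosen with earlier results of these data known. Their p-values and counts carry that choice and are not an independent test.

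Cells were intraepithelial lymphocytes from the small intestine of NOD-SCID mice aged 8 to 10 weeks. All were CD3- CD45+, and 3 populations were sorted to high purity: Ly49E+CD8aa+, Ly49E+CD8aa- and Ly49E-CD8aa+ cells, with 3 arrays each, which the labels call biological replicates. How many mice gave RNA to 1 array is not stated in the labels, so p-values measure the spread between these arrays. Mature lymphocytes with rearranged antigen receptors are lacking in this strain. Total RNA was amplified and measured on Affymetrix Mouse Gene 1.0 ST arrays, and the values are log2 expression after RMA, a method that corrects background, equalises arrays and combines probes. There were 3 comparisons. The Ly49E comparison is Ly49E+CD8aa+ minus Ly49E-CD8aa+, the CD8aa comparison is Ly49E+CD8aa+ minus Ly49E+CD8aa-, and the single-marker comparison is Ly49E+CD8aa- minus Ly49E-CD8aa+. Each pair of comparisons shares the arrays of 1 population. A gene was called where the adjusted p of limma, Benjamini-Hochberg over all genes, was under 0.05. Over all genes 0.13% were called in the Ly49E comparison (0.0201% higher, 0.11% lower), 1.7% in the CD8aa comparison (0.476% higher, 1.22% lower), 2.15% in the single-marker comparison (1.35% higher, 0.802% lower) and 2.03% by the F test over the 3 populations.

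Vitamin A reaches cells as retinol, which alcohol and retinol dehydrogenases oxidise to retinal. Aldehyde dehydrogenases of the ALDH1A family then make retinoic acid, which binds RAR receptors paired with RXR, and CYP26 enzymes break it down. In the intestine, epithelial cells and some dendritic cells make retinoic acid, and lymphocytes exposed to it gain the gut homing receptors CCR9 and alpha4beta7 integrin.

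Proximal promoter sequence is shown for Adh1 and Rara, the genes of the set whose levels the results turn on. Both stretches are the 250 bases before a transcription start in RefSeq (GRCm38.p6, plus strand, 5′ to 3′). Capitals mark matches on either strand to the half-sites bound by retinoid receptors, AGGTCA and its variants, which are GGGTCA as one, AGTTCA as another and GGTTCA as the last. The Rara stretch is the 1 of its 4 annotated starts with the most matches, which do not overlap each other.
Adh1, chr3:138277335-138277584: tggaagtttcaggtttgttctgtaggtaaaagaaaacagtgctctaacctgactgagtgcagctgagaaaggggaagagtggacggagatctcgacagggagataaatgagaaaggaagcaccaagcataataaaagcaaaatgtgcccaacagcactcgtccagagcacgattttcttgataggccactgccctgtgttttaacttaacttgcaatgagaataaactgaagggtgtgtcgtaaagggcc
Rara, chr11:98939461-98939710: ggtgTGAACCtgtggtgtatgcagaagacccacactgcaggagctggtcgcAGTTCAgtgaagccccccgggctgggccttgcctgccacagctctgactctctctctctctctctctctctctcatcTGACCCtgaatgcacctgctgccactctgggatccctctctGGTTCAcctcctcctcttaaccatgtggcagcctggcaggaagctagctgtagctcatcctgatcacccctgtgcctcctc
The Adh1 stretch held no match and that of Rara held 4, of which 2 were on the plus strand. The windows at the other annotated Rara starts held no match, as at Adh1. Over all 32851 promoter windows of this length, 38.6% held at least 1 half-site, so a match is common. Of 17 windows of the 8 genes with an entry, 4 held one, in Aldh1a1, Rara, Rarg and Rxra. Direct repeats of the half-site with 1, 2 or 5 bases between, the arrangements that RAR and RXR pairs bind, were in 0 of the 17 windows, against 0.164%, 0.174% and 0.0883% of all windows.

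Array medians ran from 5.76 to 5.82, and correlations between arrays across genes, which are not independent replicates, were 0.992 to 0.994 within a population and 0.985 to 0.994 between populations. The transcripts of the sort markers were read as a check of the labels. Klra5, which encodes Ly49E and is open to cross-hybridisation with its family, averaged 11.40 in Ly49E+CD8aa+ cells, 11.43 in Ly49E+CD8aa- cells and 6.59 in Ly49E-CD8aa+ cells. Cd8a averaged 12.55, 11.42 and 12.58 in the same order of populations, so it was lowest in the CD8aa- cells but high there too. Cd8b1, the beta chain of the CD8 heterodimer, averaged 5.28 in Ly49E+CD8aa+ cells, 8.34 in Ly49E+CD8aa- cells and 5.30 in Ly49E-CD8aa+ cells, and was thus higher in the CD8aa- cells (log2 difference -3.06 in the CD8aa comparison and 3.04 in the single-marker comparison, called in both). Ptprc, which encodes CD45, averaged 11.83, 11.82 and 11.85. Cd3e averaged 11.75, 10.70 and 11.67, high in all populations although the gate was for cells without CD3 on the surface. In sorted bulk samples, fewer cells with a transcript and less of it per cell cannot be told apart.

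Adh1, a cytosolic alcohol dehydrogenase that oxidises ethanol and retinol, differed between all 3 populations. Its log2 level was 8.57, 8.71 and 8.79 in Ly49E+CD8aa+ cells, 6.59, 6.78 and 6.57 in Ly49E+CD8aa- cells, and 7.73, 7.93 and 7.94 in Ly49E-CD8aa+ cells. The ranges of the 3 populations did not overlap, and Ly49E+CD8aa+ cells were highest and Ly49E+CD8aa- cells lowest. The means were 8.69 ± 0.111, 6.65 ± 0.113 and 7.87 ± 0.119 (SD, n = 3 each). Adh1 was thus 4.13-fold higher in Ly49E+CD8aa+ cells than in Ly49E+CD8aa- cells (log2 difference 2.05, SE 0.0924) and 1.77-fold higher than in Ly49E-CD8aa+ cells (0.83, SE 0.0924). Ly49E+CD8aa- cells were below Ly49E-CD8aa+ cells, with a log2 difference of -1.22 (SE 0.0924). Such separation of arrays in the direction of Adh1 was seen in 7.41%, 2.88% and 7.45% of all genes in the CD8aa, Ly49E and single-marker comparisons, and nothing is read from it for a gene chosen on these values. When any 1 of the 9 arrays was left out, these differences ran from 2.00 to 2.11 in the CD8aa comparison, from 0.76 to 0.89 in the Ly49E comparison and from -1.29 to -1.18 in the single-marker comparison.

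**Figure D1:**
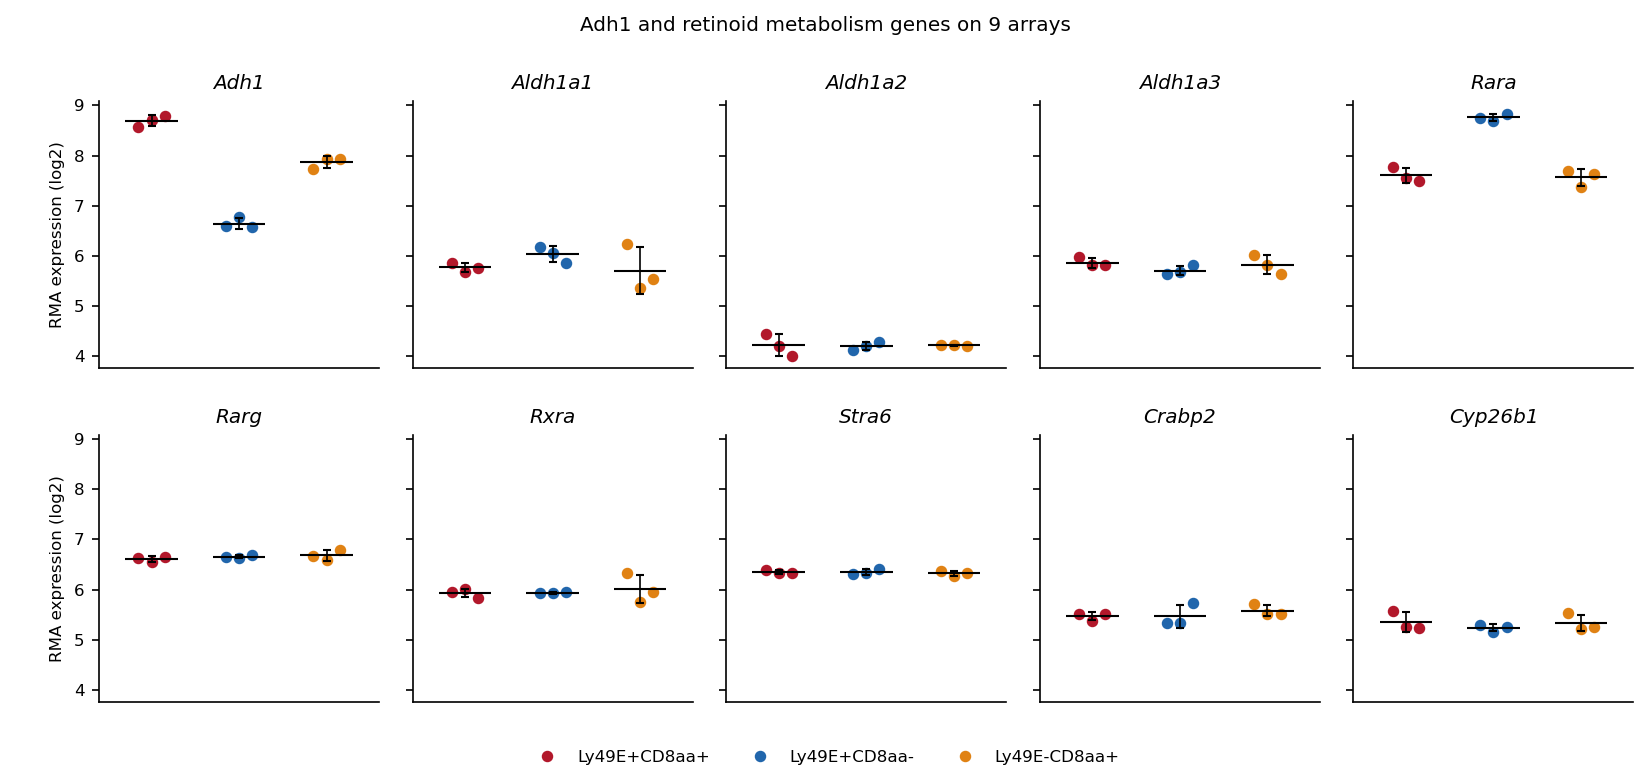
RMA expression (log2) of the 10 genes on each array. Points are arrays, lines are means and bars are the SD over 3 arrays of Ly49E+CD8aa+ (red), Ly49E+CD8aa- (blue) and Ly49E-CD8aa+ cells (orange). Adh1 separates the 3 populations and Rara sets Ly49E+CD8aa- cells apart, while in each of the other 8 genes the populations overlap. Heights of different genes are not comparable, since each has its own probes.

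The Adh genes lie side by side on mouse chromosome 3, which allows the neighbours of Adh1 to be set beside it (gene order from RefSeq, assembly GRCm38.p6). Adh7, which precedes Adh1 and oxidises retinol in stomach and other epithelia, averaged 5.29 in Ly49E+CD8aa+ cells, 5.06 in Ly49E+CD8aa- cells and 5.11 in Ly49E-CD8aa+ cells. Its log2 difference in the CD8aa comparison was 0.24 and did not pass (adjusted p = 0.296). Adh7 had the same order of population means as Adh1, and its Ly49E+CD8aa+ arrays all lay above those of the other populations. Such separation was seen in 7.41% of all genes in the CD8aa comparison and 2.88% in the Ly49E comparison. Adh6a and Adh6b, which follow Adh1, differed by -0.01 and -0.14 in that comparison. Adh4, another retinol-oxidising class, differed by -0.09, and Adh5, the widely expressed dehydrogenase that acts on glutathione-bound formaldehyde, by -0.03. In the Ly49E comparison these 5 neighbours differed by -0.20 to 0.18. The flanking genes 4930579F01Rik and Metap1 differed by 0.15 and -0.02 in the CD8aa comparison. Of these 7 genes, 0 passed in any of the 3 comparisons by limma, with 1, 1 and 0 at an unadjusted p under 0.05 in the Ly49E, CD8aa and single-marker comparisons. A difference between Adh1 and its neighbours was not tested.

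**Figure D2:**
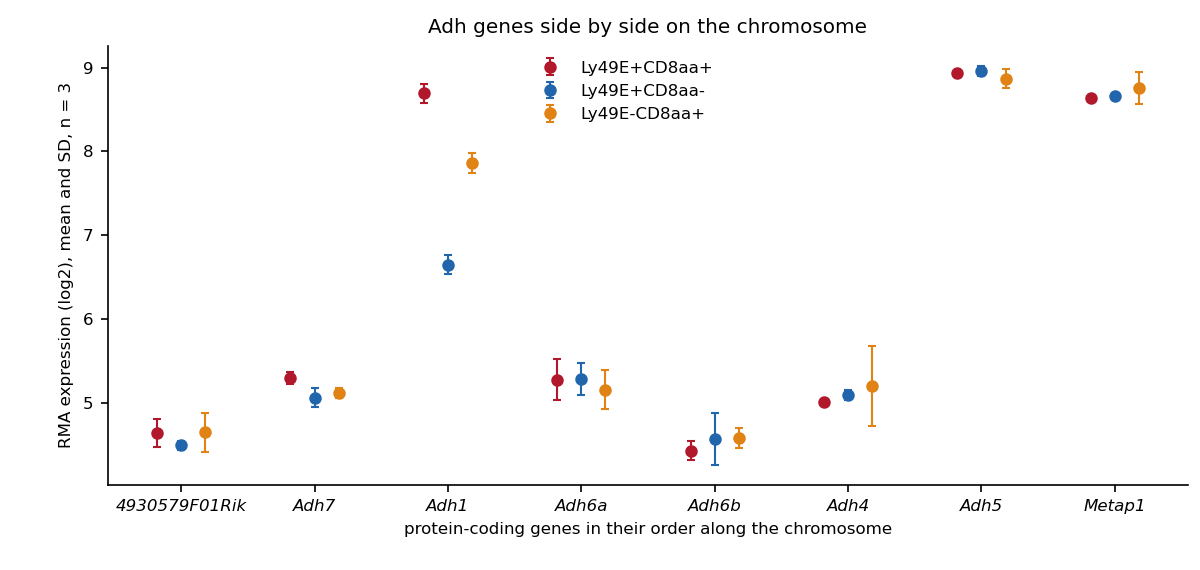
Mean RMA expression (log2) with the SD over 3 arrays for Adh1, the other Adh genes beside it and the gene on each flank, in chromosomal order, for Ly49E+CD8aa+ (red), Ly49E+CD8aa- (blue) and Ly49E-CD8aa+ cells (orange). Adh1 spans 2.05 log2 units between populations, while the 3 means of each neighbour lie close together. Levels of different genes are not comparable.

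Among 225 protein-coding genes whose population means spanned at least 1 log2 unit, the 8 most like Adh1 over the 9 arrays by Pearson correlation were Tnfrsf9 (0.955), Pdzk1 (0.929), Glp1r (0.921), Gpx8 (0.901), Epb41l4a (0.887), Cd8a (0.882), Rnf180 (0.878) and Cela1 (0.876). The arrays fall into 3 populations, so these values are descriptions with no test. Tnfrsf9, which encodes the costimulatory receptor 4-1BB, shared the order of Adh1, with 10.20, 10.09 and 9.86 in Ly49E+CD8aa+ cells, 8.95, 9.11 and 8.66 in Ly49E+CD8aa- cells, and 9.54, 9.61 and 9.49 in Ly49E-CD8aa+ cells. Pdzk1, a scaffold protein of brush border membranes, had the same order, with means of 10.27, 8.97 and 9.79. The arrays of the 3 populations did not overlap in Tnfrsf9 and Pdzk1. Arrays separated in those directions in 7.41%, 2.88% and 7.45% of all genes in the CD8aa, Ly49E and single-marker comparisons. Both genes were picked for likeness to Adh1 on these same arrays, so nothing is read from their separation. In the other 6 the arrays of the CD8aa+ populations overlapped. Glp1r, the receptor for glucagon-like peptide 1, averaged 10.37 in Ly49E+CD8aa+ cells, 9.31 in Ly49E+CD8aa- cells and 10.32 in Ly49E-CD8aa+ cells. Gpx8, of the glutathione peroxidase family, averaged 10.48, 9.04 and 10.47.

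The 4 genes most opposite to Adh1 were Il7r (-0.986), Trib2 (-0.969), Ccr2 (-0.966) and Cd44 (-0.963). Il7r, the alpha chain of the IL-7 receptor, read 4.97, 4.64 and 5.16 in Ly49E+CD8aa+ cells, 10.37, 10.12 and 10.61 in Ly49E+CD8aa- cells, and 6.82, 6.25 and 6.27 in Ly49E-CD8aa+ cells. Its populations were fully separated in the reverse order of Adh1. Arrays separated in those directions in 5.52%, 3.38% and 5.29% of all genes in the CD8aa, Ly49E and single-marker comparisons. Il7r was picked for its opposition to Adh1 on these same arrays, so nothing is read from its separation. Rara, the gene of the set that moved against Adh1, had a correlation of -0.897 and stood at rank 70 of the 225 from the most opposite gene.

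**Figure D3:**
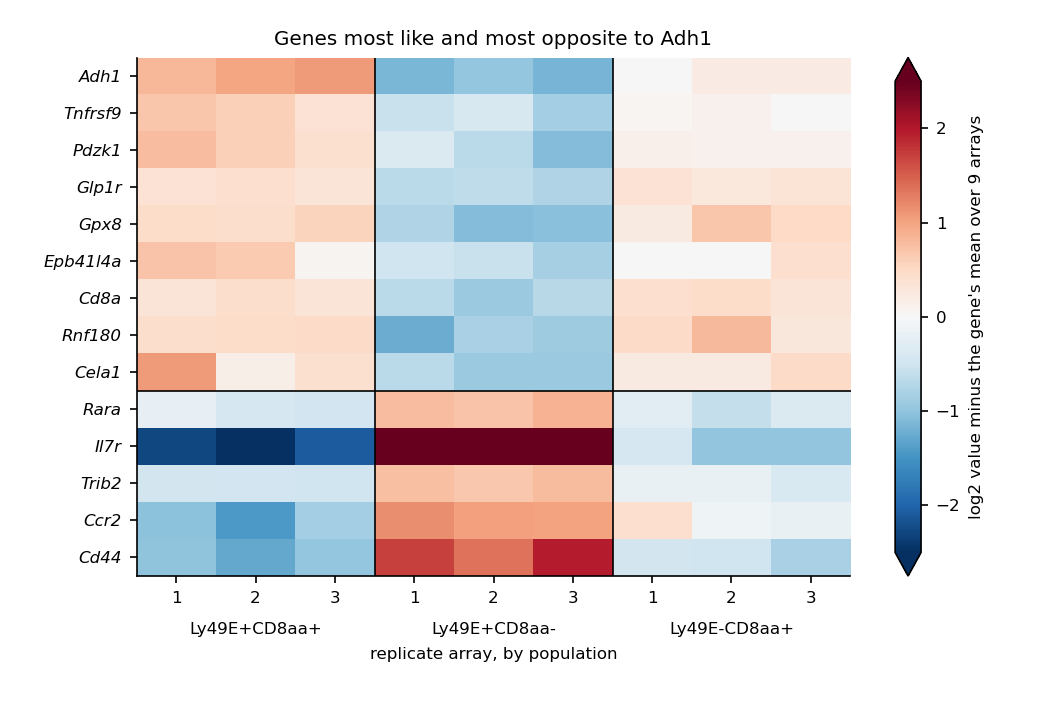
Log2 values minus each gene's mean over the 9 arrays for Adh1, the 8 genes most like it, Rara and the 4 genes most opposite to Adh1. Columns are replicate arrays of Ly49E+CD8aa+, Ly49E+CD8aa- and Ly49E-CD8aa+ cells. Red is above and blue below the gene's mean. In the 8 upper genes Ly49E+CD8aa- arrays are lowest. The colour scale ends at 2.5, and Il7r exceeds it.

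Adh1 is also a transcript of intestinal epithelium, so enterocyte markers were read on the same arrays. Of 21 measured markers, 0 were called in any comparison by limma, with 1, 2 and 2 at an unadjusted p under 0.05 in the Ly49E, CD8aa and single-marker comparisons, and median differences of 0.12, 0.04 and 0.06. Their mean log2 level was at least 7.41 on every array. The summed linear signal ran from 9339 to 13905 in Ly49E+CD8aa+ cells, from 7945 to 13750 in Ly49E+CD8aa- cells and from 7599 to 14064 in Ly49E-CD8aa+ cells, so the 3 ranges overlapped. In each population replicate 1 had the highest mean of the markers (8.15, 8.25 and 8.20). On those replicate 1 arrays Adh1 was at its lowest in Ly49E+CD8aa+ cells (8.57), between the other arrays in Ly49E+CD8aa- cells (6.59) and at its lowest in Ly49E-CD8aa+ cells (7.73). The part of epithelial RNA in the levels of Adh1 was not tested. Some dendritic cells make retinoic acid, and 19 dendritic cell markers were read too. In the Ly49E comparison 2 were lower, against 0.11% of all genes, and 2 were lower in the CD8aa comparison, against 1.22%. In the single-marker comparison 1 was higher and 4 lower, against 1.35% and 0.802%. By limma 14, 7 and 13 of them had an unadjusted p under 0.05. In the Ly49E comparison the arrays were separated, with the lower side in Ly49E+CD8aa+ cells, in 12 of the 19, against 3.38% of all genes. The median differences of the 19 were -0.54, -0.11 and -0.39. Their summed signal ran from 2552 to 2670 in Ly49E+CD8aa+ cells, from 2875 to 3274 in Ly49E+CD8aa- cells and from 3226 to 4407 in Ly49E-CD8aa+ cells. The part of dendritic cells in the levels of Adh1 was not tested either.

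The next step, oxidation of retinal to retinoic acid, gave no call among its 3 ALDH1A enzymes. Aldh1a2, the retinal dehydrogenase best known from intestinal dendritic cells, averaged 4.22 ± 0.218 in Ly49E+CD8aa+ cells, 4.21 ± 0.0815 in Ly49E+CD8aa- cells and 4.22 ± 0.0077 in Ly49E-CD8aa+ cells (SD, n = 3 each). Its 95% interval was -0.23 to 0.24 in the CD8aa comparison and -0.24 to 0.23 in the single-marker comparison. Its mean lay below the 25th percentile of every array (4.40 to 4.47). Detection calls were not analysed here, so whether Aldh1a2 was expressed at all cannot be read from this level.

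Aldh1a3, a retinal dehydrogenase of epithelia, read 5.98, 5.81 and 5.81 in Ly49E+CD8aa+ cells, 5.64, 5.68 and 5.81 in Ly49E+CD8aa- cells, and 6.02, 5.81 and 5.65 in Ly49E-CD8aa+ cells. Aldh1a1, the widely expressed member, read 5.86, 5.69 and 5.76 in Ly49E+CD8aa+ cells, 6.19, 6.05 and 5.86 in Ly49E+CD8aa- cells, and 6.23, 5.35 and 5.53 in Ly49E-CD8aa+ cells. Neither passed in any comparison. The populations overlapped in both genes, and the spread of Aldh1a1 was widest in Ly49E-CD8aa+ cells (SD 0.465), where replicate 1 stood above the other arrays. Without that array Aldh1a1 was higher in Ly49E+CD8aa- cells than in Ly49E-CD8aa+ cells by 0.59 (SE 0.111, adjusted p = 0.0482), against 0.33 (SE 0.199, adjusted p = 0.65) with all arrays. Over all alternatives this was the 1 change of call in the 8 genes beside Adh1 and Rara, against 413 values that kept theirs. The array stood out on these same values, so nothing is read from that call. The close paralogue Aldh1a7, open to cross-hybridisation with Aldh1a1, averaged 3.99 in Ly49E+CD8aa+ cells, 4.02 in Ly49E+CD8aa- cells and 3.98 in Ly49E-CD8aa+ cells.

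Of the 3 receptor genes in the set, Rara was called and Rarg and Rxra were not. Rara encodes retinoic acid receptor alpha, one of the receptors through which lymphocytes respond to retinoic acid. It read 7.78, 7.55 and 7.49 in Ly49E+CD8aa+ cells, 8.75, 8.69 and 8.84 in Ly49E+CD8aa- cells, and 7.70, 7.38 and 7.63 in Ly49E-CD8aa+ cells. Every Ly49E+CD8aa- array was above the other 6, while the CD8aa+ populations overlapped. Arrays separated in that direction in 5.52% of all genes in the CD8aa comparison and 5.29% in the single-marker comparison. Rara was lower in Ly49E+CD8aa+ cells than in Ly49E+CD8aa- cells, with a log2 difference of -1.15 (SE 0.105, adjusted p = 0.000447, 0.45-fold). It was higher in Ly49E+CD8aa- cells than in Ly49E-CD8aa+ cells by 1.19 (SE 0.105, adjusted p = 0.000313, 2.28-fold). In the Ly49E comparison the difference was 0.04 (SE 0.105), with a 95% interval of -0.20 to 0.28. Both calls held in all 18 alternatives run, with adjusted p up to 0.00442 and 0.0042.

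Markers of lymphocyte types also differed between these populations, in both directions. Of 13 innate lymphocyte markers, 2 were higher and 4 lower in the CD8aa comparison, against 0.476% and 1.22% of all genes. In the single-marker comparison 4 were higher and 2 lower, against 1.35% and 0.802%. Ncr1, which encodes the natural killer cell receptor NKp46, averaged 4.26 in Ly49E+CD8aa+ cells, 9.69 in Ly49E+CD8aa- cells and 4.40 in Ly49E-CD8aa+ cells. Eomes, a transcription factor of natural killer cells, averaged 4.32, 7.15 and 4.58 in the same order of populations, and Gata3, a transcription factor of innate lymphoid and T cells, averaged 8.43, 8.94 and 8.47. With Il7r, these are the 4 markers that were highest in Ly49E+CD8aa- cells and called. Itgae, which encodes an integrin chain, was among the 2 that went the other way, with a difference of 0.31 in the CD8aa comparison. The largest positive difference among the 13 there was 0.40, that of another marker. Itgae fell outside the rule for named genes. The mean log2 level of the 13 ran from 9.41 to 9.46 in Ly49E+CD8aa+ cells, from 10.44 to 10.56 in Ly49E+CD8aa- cells and from 9.55 to 9.59 in Ly49E-CD8aa+ cells, and their summed linear signal from 45265 to 46904, from 43135 to 44872 and from 44047 to 47091. Of 10 T cell markers, 2 were higher and 1 lower in the CD8aa comparison, against 0.476% and 1.22% of all genes. The lower one was Cd28, a costimulatory receptor, with a difference of -2.54, and the higher ones were Cd3e (1.05) and Themis (1.28). In the single-marker comparison 2 T cell markers were higher and 1 lower, against 1.35% and 0.802% of all genes. The T cell markers summed to 13030 to 13344, 9774 to 11222 and 12487 to 12843. Ncr1, Eomes, Gata3, Il7r and Cd28 were highest in Ly49E+CD8aa- cells, where Adh1 was lowest. The genes described below that were highest or lowest in Ly49E+CD8aa- cells differed between the same populations as these markers. The part of the markers in the differences of Rara, Adh1 and those genes was not tested.

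Rarg, the gamma receptor, averaged 6.61 ± 0.055 in Ly49E+CD8aa+ cells, 6.65 ± 0.0322 in Ly49E+CD8aa- cells and 6.68 ± 0.101 in Ly49E-CD8aa+ cells. Rxra, the alpha form of the common partner RXR, averaged 5.93 ± 0.0826, 5.94 ± 0.018 and 6.01 ± 0.289 in the same order of populations. Replicate 1 of Ly49E-CD8aa+ was again the highest Rxra array, at 6.33 against 5.76 and 5.95 in its population. The 95% intervals of both genes lay between -0.37 and 0.21 in the Ly49E comparison. Of the other receptors of these families, Rarb (-0.15), Rxrb (0.25) and Rxrg (0.01) did not pass in the CD8aa comparison either.

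The genes for uptake, carriage and breakdown gave no call. Stra6, the cell-surface receptor that takes up retinol from its carrier in plasma, averaged 6.34 ± 0.038 in Ly49E+CD8aa+ cells, 6.35 ± 0.0538 in Ly49E+CD8aa- cells and 6.32 ± 0.0589 in Ly49E-CD8aa+ cells. Its 95% intervals, -0.15 to 0.14 in the CD8aa comparison and -0.12 to 0.16 in the Ly49E comparison, were the narrowest of the 10 genes. Crabp2, which carries retinoic acid to its receptors, averaged 5.47 ± 0.0815, 5.46 ± 0.233 and 5.58 ± 0.111 in the same order of populations. Cyp26b1, which oxidises retinoic acid for removal, averaged 5.35 ± 0.197, 5.24 ± 0.0717 and 5.33 ± 0.166. The other CYP26 genes, Cyp26a1 and Cyp26c1, differed by 0.06 and -0.04 in the CD8aa comparison and did not pass.

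Of the 9 genes beside Adh1, 0 were called in the Ly49E comparison, where 0.13% of all genes were, and 0 of them had an unadjusted p under 0.05. In the CD8aa comparison 1 of 9, Rara, was lower, against 1.22% of all genes, and in the single-marker comparison the same gene was higher, against 1.35%. The median differences of the 9 were 0.02, -0.00 and -0.03 in the Ly49E, CD8aa and single-marker comparisons, beside -0.00, 0.03 and -0.02 over all genes. Arrays of the populations did not overlap in 0 of the 9 in the Ly49E comparison, against 6.25% of all genes (2.88% higher, 3.38% lower), and in 1 of the 9, Rara, in the CD8aa and single-marker comparisons, against 12.9% and 12.7%. For the 8 genes that remain beside Rara, the 95% intervals ran at most from -0.39 to 0.51, from -0.71 to 0.39 and from -0.38 to 0.78, the outermost bounds being those of Aldh1a1, Aldh1a3 and Crabp2.

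**Figure D4:**
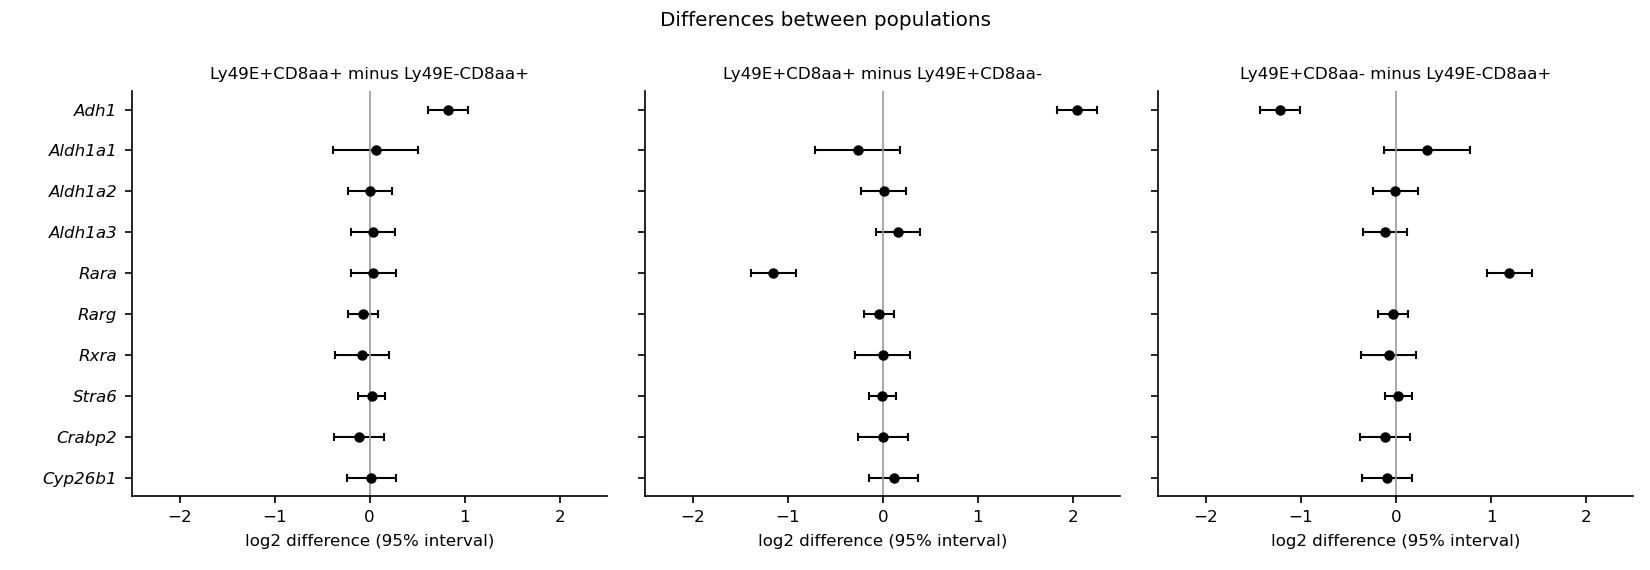
Log2 differences between populations for the 10 genes, with 95% intervals from the fit to all 9 arrays (n = 3 per population). Intervals for Adh1 are a description. Adh1 lies away from 0 in all 3 comparisons and Rara in the CD8aa and single-marker comparisons, while the intervals of the other 8 genes include 0.

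Genes of the wider pathway, other nuclear receptors and partners, and genes that respond to retinoic acid were read from 5 lists. The lists name 106 genes outside the set, of which 97 were measured, called retinoid genes here for short. Rora and Nr4a1 from the list of receptors and partners were among those called. So were Ccr9, Itga4, Trib1 and Il13 from the responsive list, so the counts do not describe retinoid metabolism alone. The lists were chosen with earlier results of these data known, so their counts beside the shares of all genes are a description. In the Ly49E comparison 0 of 97 were called, with 4 at an unadjusted p under 0.05. In the CD8aa comparison 2 were higher and 5 lower, against 0.476% and 1.22% of all genes, and in the single-marker comparison 5 were higher and 3 lower, against 1.35% and 0.802%. With any 1 array left out, 4 to 7 were called in the CD8aa comparison and 4 to 8 in the single-marker comparison, the lowest counts being those without Ly49E+CD8aa+ replicate 2 or 3 or Ly49E+CD8aa- replicate 2 or 3 in the CD8aa comparison and without Ly49E-CD8aa+ replicate 3 in the single-marker comparison. The median differences over all arrays were 0.01, 0.03 and -0.04, beside -0.00, 0.03 and -0.02 over all genes.

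Enzymes between retinol and retinal had 1 of 19 genes called, lower in the CD8aa comparison (1.22% of all genes) and higher in the single-marker comparison (1.35%). Dhrs3, which reduces retinal back to retinol and limits retinoic acid, was highest in Ly49E+CD8aa- cells. It read 6.38, 5.70 and 5.99 in Ly49E+CD8aa+ cells, 6.84, 7.01 and 6.77 in Ly49E+CD8aa- cells, and 6.05, 5.67 and 5.83 in Ly49E-CD8aa+ cells. The difference was -0.85 (SE 0.165, adjusted p = 0.0373) in the CD8aa comparison and 1.02 (SE 0.165, adjusted p = 0.0129) in the single-marker comparison. The first call was lost in 9 of 18 alternatives (adjusted p up to 0.143), 8 of them with 1 array left out, and the second in 3 (adjusted p up to 0.0591). Rdh10, the retinol dehydrogenase required for retinoic acid in the mouse embryo, averaged 7.47 in Ly49E+CD8aa+ cells, 7.12 in Ly49E+CD8aa- cells and 7.66 in Ly49E-CD8aa+ cells and did not pass.

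Retinal oxidation and retinoic acid clearance had 0 of 9 genes called in any comparison by limma, with 1, 0 and 1 at an unadjusted p under 0.05 in the Ly49E, CD8aa and single-marker comparisons. Uptake, storage and carriage had 1 of 22, lower in the single-marker comparison, against 0.802% of all genes. Cd36, a scavenger receptor for lipids, had a difference of -0.53 in the single-marker comparison (SE 0.11, adjusted p = 0.0449), with means of 3.36 in Ly49E+CD8aa- cells and 3.89 in Ly49E-CD8aa+ cells, at the dim end of the arrays. This call was lost in 12 of 16 alternatives (adjusted p up to 0.161). Crabp1, the paralogue of Crabp2, averaged 5.67 in Ly49E+CD8aa+ cells, 5.65 in Ly49E+CD8aa- cells and 5.61 in Ly49E-CD8aa+ cells.

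Receptors and their partners had 2 of 28 genes called, both highest in Ly49E+CD8aa- cells. In that direction 1.22% of all genes were called in the CD8aa comparison and 1.35% in the single-marker comparison. Rora, an orphan nuclear receptor of innate lymphoid cells, read 6.79, 6.81 and 6.43 in Ly49E+CD8aa+ cells, 8.88, 8.74 and 8.74 in Ly49E+CD8aa- cells, and 6.45, 6.68 and 6.83 in Ly49E-CD8aa+ cells. Nr4a1, an immediate early gene whose product can pair with RXR, read 7.40, 7.45 and 7.20 in Ly49E+CD8aa+ cells, 9.85, 9.43 and 9.64 in Ly49E+CD8aa- cells, and 7.54, 7.23 and 7.90 in Ly49E-CD8aa+ cells. In both genes the Ly49E+CD8aa- arrays stood clear of the rest, as they did for Rara. Rora had a difference of -2.11 (SE 0.124, adjusted p = 2.15e-05) and Nr4a1 of -2.29 (SE 0.169, adjusted p = 0.000109) in the CD8aa comparison.

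**Figure D5:**
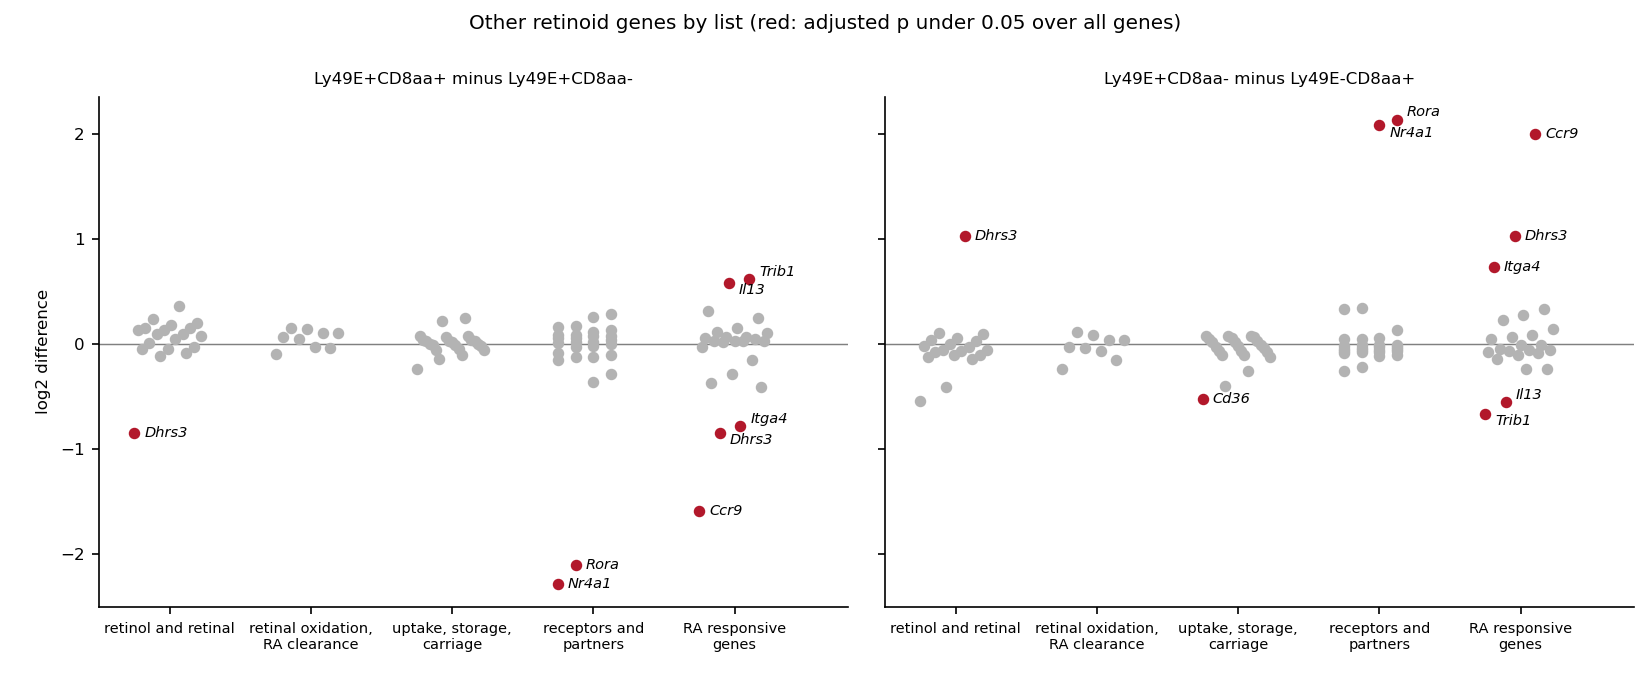
Log2 differences of the 97 measured genes of the 5 retinoid lists, which include partners and responsive genes, in the CD8aa comparison (left) and the single-marker comparison (right). Each point is a gene, and Dhrs3 and a few others stand in 2 lists. Red points passed an adjusted p of 0.05 over all genes. Nr4a1, Rora, Ccr9, Dhrs3 and Itga4 lie on the side of higher levels in Ly49E+CD8aa- in both panels, which share those arrays.

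Of 24 measured genes known to respond to retinoic acid, 2 were higher and 3 lower in the CD8aa comparison, against 0.476% and 1.22% of all genes. In the single-marker comparison 3 were higher and 2 lower, against 1.35% and 0.802%. Ccr9, the receptor that draws lymphocytes to the small intestine, read 8.60, 8.24 and 7.95 in Ly49E+CD8aa+ cells, 10.05, 9.64 and 9.88 in Ly49E+CD8aa- cells, and 8.18, 7.55 and 7.84 in Ly49E-CD8aa+ cells. It was lower in Ly49E+CD8aa+ cells than in Ly49E+CD8aa- cells (log2 difference -1.59, SE 0.197, adjusted p = 0.00323) and higher in Ly49E+CD8aa- cells than in Ly49E-CD8aa+ cells by 2.00 (SE 0.197, adjusted p = 0.000607). The CD8aa+ populations overlapped.

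Itga4, the alpha chain of the gut homing integrin, read 6.69, 6.27 and 6.46 in Ly49E+CD8aa+ cells, 7.09, 7.30 and 7.40 in Ly49E+CD8aa- cells, and 6.59, 6.66 and 6.35 in Ly49E-CD8aa+ cells. It had a difference of -0.79 (SE 0.13, adjusted p = 0.0161) in the CD8aa comparison and of 0.73 (SE 0.13, adjusted p = 0.022) in the single-marker comparison, each lost in 5 of 18 alternatives (adjusted p up to 0.0744 and 0.0932). Itgb7, the beta chain of the same integrin, averaged 9.38 in Ly49E+CD8aa+ cells, 9.42 in Ly49E+CD8aa- cells and 9.27 in Ly49E-CD8aa+ cells and did not pass. On the other side, Il13, a type 2 cytokine, was higher in Ly49E+CD8aa+ cells than in Ly49E+CD8aa- cells by 0.58 (SE 0.0853, adjusted p = 0.00865). Il13 fell outside the rule for named genes and was added after its values were seen. Trib1, a pseudokinase, was higher by 0.62 (SE 0.121, adjusted p = 0.0408), a call lost in 12 of 18 alternatives (adjusted p up to 0.152). Rarb, Cyp26a1 and Dhrs3 are induced by retinoic acid in many cells, and of these only Dhrs3 was called. Rarb and Cyp26a1 averaged 4.04 and 3.70 over all arrays, below the 25th percentile of every array (4.40 to 4.47). Little can be read from their lack of a call at that level.

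Dehydrogenases outside retinoid metabolism gave a further comparison for Adh1. Of 17 other alcohol and aldehyde dehydrogenases, 0 were called in the Ly49E, CD8aa or single-marker comparison by limma, with 2, 0 and 2 at an unadjusted p under 0.05. Their differences ran from -0.50 to 0.12, from -0.27 to 0.20 and from -0.45 to 0.21.

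Many deposited values were identical on several arrays. Of the 19938 genes, 60.5% had a value repeated exactly on at least 2 arrays and 18.4% on at least 4. Among the 10 genes, 6 had such repeats, and Stra6 and Crabp2 each had a value repeated on 4 arrays (6.32 and 5.52). Adh1 and Rara had none. How the repeats arose was not tested.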

How the data were processed

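Expression was measured in 3 sorted populations on 3 arrays each. The deposited values are log2 expression values that the authors made with RMA, per the submitters' processing notes, each row standing for a transcript cluster. They ran from 1.84 to 13.8, as log2 values do. The sources used here do not give the RMA version, the build or any later centring, and the number of arrays limits the precision.

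The platform annotation listed 23410 of 35556 rows, 21789 with 1 symbol, 1621 with several, and 12146 were not listed. Names were updated by Entrez identifier for 21698 rows. The row with the highest mean stood for a gene, which left 19938 genes, with no filter on dim genes. A mean per population was fitted to all 9 arrays with limma 3.58.1 in R 4.3.3, with no block and with empirical Bayes moderation. Tests were 2-sided, and calls needed a Benjamini-Hochberg adjusted p under 0.05 over all genes. The fit was tested on simulated data. The moderated F test called 405 genes (2.03%). Promoter sequences were from RefSeq.

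The 10 genes and all lists were chosen with earlier results of these data known. Named genes were the 10 genes, fixed genes of the same steps, up to 4 called genes per list and comparison, the sort markers, and the genes most like and most opposite to Adh1. Alternatives changed the arrays in the fit, the filter, normalization, centring, moderation, rows per gene and pairing.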

Additional observations from a re-analysis of the deposited data

How the results depend on the processing

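The differences of Adh1 kept their direction in all 18 alternatives of each comparison, as did those of Rara in the CD8aa and single-marker comparisons, where its calls held. In the Ly49E comparison Rara was called in none of the 18, and its difference of 0.04 ran from -0.05 to 0.11 with 1 array left out. The 8 other genes of the set kept their call in 413 values and changed it in 1, that of Aldh1a1 given above. Among the other named genes 2528 values kept their call, 198 lost it and 4 gained it. With the 6 arrays of a comparison alone, 0 genes were called by limma in the Ly49E comparison in place of 26 (695 at an unadjusted p under 0.05) and 263 in the single-marker comparison in place of 429, and the retinoid genes called became 4 in place of 7 in the CD8aa comparison and 5 in place of 8 in the single-marker comparison. In the Ly49E comparison 15 genes were called with a filter at the median of gene means. With 1 array left out, the count ran from 5 to 32 in the Ly49E comparison and from 248 to 332 in the F test (405 with all arrays), and the retinoid genes called from 4 to 7 in the CD8aa comparison and from 4 to 8 in the single-marker comparison. The count of 7 became 4 without Ly49E+CD8aa+ replicate 2 or 3 or Ly49E+CD8aa- replicate 2 or 3, and that of 8 became 5 without Ly49E+CD8aa- replicate 3 or Ly49E-CD8aa+ replicate 1 and 4 without Ly49E-CD8aa+ replicate 3. The F test called 248 without Ly49E+CD8aa- replicate 3. The cause was not tested, beyond the fewer arrays or genes of each alternative.

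Replicate numbers are shared by the populations, but arrays of the same number did not all deviate together (correlations of deviations from -0.063 to 0.22 over 9 pairs), so no block was used. The 3 pairs of replicate 1 had the values 0.127 to 0.222, above every pair of different numbers (up to 0.103), which is a hint from the data and not from the design. Taking that number as a block gave 17 calls in the Ly49E comparison in place of 26, and 0, 7 and 7 retinoid genes called in the Ly49E, CD8aa and single-marker comparisons. Among the named genes the block ended 4 calls, those of Trib1 in the CD8aa comparison (adjusted p = 0.0711) and of Itga4 (0.0547), Gata3 (0.0575) and Batf3 (0.066) in the single-marker comparison. Values of dim genes such as Aldh1a2 limit what a flat result shows.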
